A study of Mus musculus with 352 samples.

Results

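Glycolysis and pyruvate oxidation were followed through 38 genes in the tibialis anterior of 352 mice. This muscle of the shin is made mostly of fast fibres. The genes were taken by gene symbol, in a list chosen with earlier results of these data known. Of the 38 genes, 37 had a row among the 14413 genes of the expression table, and Aldoc was not analysed here. The 34 genes with a mean log2 FPKM (fragments per kilobase of transcript, scaled to the library's reads) of at least 0 over all libraries were tested, among 9862 genes that passed this limit. Hk1, Pfkp and Pdk3 lay below it, with mean log2 FPKM of -0.36, -0.76 and -1.89, and were not tested. The study asked how the molecular clock of muscle and of brain shapes daily transcription in muscle, by removing the clock gene Bmal1 (symbol Arntl) and putting it back.

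All mice were of strain C57BL/6, of both sexes, and whole muscle was taken every 4 h at 6 times of day, written as ZT (zeitgeber time, counted in hours from lights on), from 3 to 5 mice per group and time. Wild-type mice (WT) were 10 to 12 weeks old (called 10 weeks, 23 mice) or 26 weeks old (22 mice). Knockout mice (KO) were Bmal1(stopFL/stopFL), Cre(-/-), so that a floxed stop cassette blocked the gene in the whole body (23 mice at 10 weeks, 24 at 26 weeks). Mu-RE mice were Bmal1(stopFL/stopFL), Hsa-Cre(-/tg), in which a Cre driven by a skeletal muscle actin promoter restores Bmal1 in muscle (25 and 24 mice). Br-RE mice were Bmal1(stopFL/stopFL), Syt10-Cre(-/tg), with Cre in the brain (23 and 22 mice), and RE-RE mice carried both Cre alleles (24 and 24 mice). These groups were fed ad libitum (ALF). At 26 weeks, 24 WT, 23 KO and 23 Mu-RE mice were on time-restricted feeding (TRF), and old wild-type mice of 85 to 116 weeks were on ALF (24) or TRF (24).

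Glycolysis splits glucose into pyruvate in the cytosol, with phosphofructokinase as its most tightly controlled step, and fast muscle fibres rely on it for short bursts of work. Pyruvate is either reduced to lactate by lactate dehydrogenase or carried into mitochondria and oxidised by the pyruvate dehydrogenase complex, which kinases switch off and phosphatases switch on. Many steps have a muscle isozyme and a more widely expressed isozyme, so the balance between paired genes is as much a property of a muscle as the level of either.

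The tissue label was borne out by its markers, with mean log2 FPKM over all libraries of 12.75 for Myh4, 13.47 for Tnnt3 and 13.03 for Mylpf, genes of fast fibres, and -1.18 for Myh7, the slow myosin heavy chain. Read depth recovered from the steps between low values was 14.6 to 46.9 M reads per library, with group medians of 19.3 to 24.4. Arntl, the targeted gene, swung with an amplitude of 1.57 (log2) in WT and 0.06 in KO muscle at 10 weeks, while its 24 h mean, which sums reads over the whole gene, was higher in KO. Dbp, a direct Bmal1 target, lay at -1.0 to 0.95 (median 0.22) log2 FPKM in KO and 1.44 to 4.72 (median 3.53) in WT muscle at 26 weeks. The Br-RE and RE-RE libraries were centred apart from the others in the deposited values, so their levels are set only against each other, and the sexes were not compared. In whole muscle, fewer cells of a type and less RNA per cell cannot be told apart.

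Measured per transcript length, the pathway was carried by a few very abundant muscle isozymes. Aldoa, the muscle aldolase, which splits fructose bisphosphate, had the highest mean log2 FPKM of the 37 genes, 12.66 over all libraries. Eno3, the muscle enolase, followed at 11.53, Pgam2, the muscle phosphoglycerate mutase, at 10.76, Pkm, pyruvate kinase, at 10.56, and Pfkm, muscle phosphofructokinase, at 10.21. Tpi1 (triose phosphate isomerase) at 9.75, Ldha (the lactate dehydrogenase subunit typical of fast muscle) at 9.70, Pgk1 (phosphoglycerate kinase) at 8.49, Gapdh at 7.56 and Gpi1 (glucose phosphate isomerase) at 7.24 completed the well expressed steps. The widely expressed isozymes were far lower, at 3.87 for Eno1, 2.37 for Pgam1 and 0.87 for Pfkl, while Ldhb, the subunit typical of heart and slow muscle, reached 6.83. Copies of Gapdh, Pgam1, Ldha, Eno1, Aldoa, Pgk1 and Tpi1 elsewhere in the genome can share reads with these genes, and how such reads were counted is not stated in these sources. In WT muscle at 10 weeks the 37 genes held a median of 3.93% of the summed FPKM of a library.

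Downstream of glycolysis, the subunits of pyruvate dehydrogenase lay at mean log2 FPKM of 7.87 for Pdhb, 7.32 for Pdha1, 7.15 for Dld, 5.58 for Dlat and 4.72 for Pdhx. The mitochondrial pyruvate carrier subunits Mpc1 and Mpc2 were at 5.22 and 4.70. Of the kinases that inactivate the complex, the members Pdk2 and Pdk1 were at 7.08 and 3.40. Pdk4, a kinase that is not a member, was about as abundant, with group means of 6.52 to 7.99 against 6.96 to 7.24 for Pdk2. Of the phosphatases that reactivate it, Pdp1 was at 4.09 and Pdp2 at 0.36, with the regulatory subunit Pdpr at 4.51. The bifunctional enzymes that make and break the sugar phosphate activator of phosphofructokinase were at 3.97 for Pfkfb1, 3.85 for Pfkfb3, 3.73 for Pfkfb4 and 0.99 for Pfkfb2. Gpd1 and Gpd2, the cytosolic and mitochondrial enzymes of the glycerol phosphate shuttle, which carries reducing power into mitochondria, were at 7.23 and 5.07, the related Gpd1l at 2.82, and Bpgm, bisphosphoglycerate mutase, at 4.32.

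Bmal1 and its partner Clock bind the E-box CACGTG, so the promoters of the members were read for it, from 250 bases before to 50 bases after each RefSeq transcript start on GRCm38.p6. Promoters were found for 36 of the 38 genes, in 57 windows, and 8 windows of 8 genes (14%) held the E-box, against 2349 of 32851 promoters of the same length (7.15%). The 8 genes were Pfkm, Ldha, Pfkfb2, Pfkfb3, Pdk2, Pdp2, Pdpr and Gpd1l. The 4 below are shown because they hold the E-box (capitals) and belong to the genes whose level (Pfkm, Ldha) or daily course (Pfkfb3, Pdp2) is described further on. They lie at chr15:98092339-98092638 on the plus strand for Pfkm, chr7:46845554-46845853 on the plus strand for Ldha, chr2:11502041-11502340 on the minus strand for Pfkfb3 and chr8:104591222-104591521 on the plus strand for Pdp2, each written from 5′ to 3′.
Pfkm: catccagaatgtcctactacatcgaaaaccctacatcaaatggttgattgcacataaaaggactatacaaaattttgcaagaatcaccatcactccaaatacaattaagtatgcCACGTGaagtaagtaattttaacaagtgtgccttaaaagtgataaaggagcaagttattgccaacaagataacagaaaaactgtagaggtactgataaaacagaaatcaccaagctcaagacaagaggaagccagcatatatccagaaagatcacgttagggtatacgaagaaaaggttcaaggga
Ldha: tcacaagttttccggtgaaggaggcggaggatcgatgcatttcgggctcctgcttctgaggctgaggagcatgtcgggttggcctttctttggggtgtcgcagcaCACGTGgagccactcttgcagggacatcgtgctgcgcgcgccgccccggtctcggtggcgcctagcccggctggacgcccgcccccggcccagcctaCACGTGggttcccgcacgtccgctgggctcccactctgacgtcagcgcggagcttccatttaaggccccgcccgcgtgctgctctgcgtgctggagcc
Pfkfb3: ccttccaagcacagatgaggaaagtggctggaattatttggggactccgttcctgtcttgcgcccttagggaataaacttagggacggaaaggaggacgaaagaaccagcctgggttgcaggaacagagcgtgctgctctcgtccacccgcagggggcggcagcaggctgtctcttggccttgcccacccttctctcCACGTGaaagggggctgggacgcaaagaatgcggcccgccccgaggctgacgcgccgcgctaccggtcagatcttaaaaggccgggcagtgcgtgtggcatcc
Pdp2: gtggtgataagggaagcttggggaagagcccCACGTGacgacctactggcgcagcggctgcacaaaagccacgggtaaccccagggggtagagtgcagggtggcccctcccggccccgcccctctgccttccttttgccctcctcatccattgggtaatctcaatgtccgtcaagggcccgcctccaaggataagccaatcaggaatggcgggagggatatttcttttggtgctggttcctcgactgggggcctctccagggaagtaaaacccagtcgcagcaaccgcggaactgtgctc
The Ldha window shown held the E-box at 2 places. The windows at other starts of Pfkm, Ldha and Pfkfb3 held no E-box. Neither did those of Bpgm, Mpc1 and Eno3, and no window was found for Pdp1 or Gpd1. The D-box TTATGTAA, the motif of Dbp and its relatives, was in 0 of the 57 windows against 0.938% of all promoters, and the REV-ERB and ROR half-site AGGTCA was in 17.5% against 16.3%, both strands read in each case. The core of the hypoxia element, ACGTG, which also lies within CACGTG, was in 22 of the 57 windows (38.6%) against 19.6% of all. These matches describe the letters of the windows and were not tested for binding.

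Loss of Bmal1 lowered some of the abundant muscle isozymes and raised Eno1, the widely expressed enolase, at both ages. At 10 weeks, 4 of the 34 members were higher and 13 lower in KO than in WT muscle at an adjusted p under 0.05 (limma), where 20.3% and 21.6% of all tested genes were called higher and lower. At 26 weeks 6 were higher and 12 lower, against 24.4% and 22% of all genes. Under TRF at 26 weeks 6 were higher and 12 lower, against 25% and 26.9%. Without the 1st or the 2nd animal of each time point, 2 and 3 members were called higher at 26 weeks in place of 6, and under TRF 3 without the 2nd. The median log2 difference of the members was -0.07, -0.01 and -0.10 in these comparisons, and 0.00, 0.00 and 0.00 over all tested genes. Differences are in log2, the first group minus the second, so that a negative value means a lower level in the first. The map of level differences gives every tested member in each comparison.

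**Figure D1:**
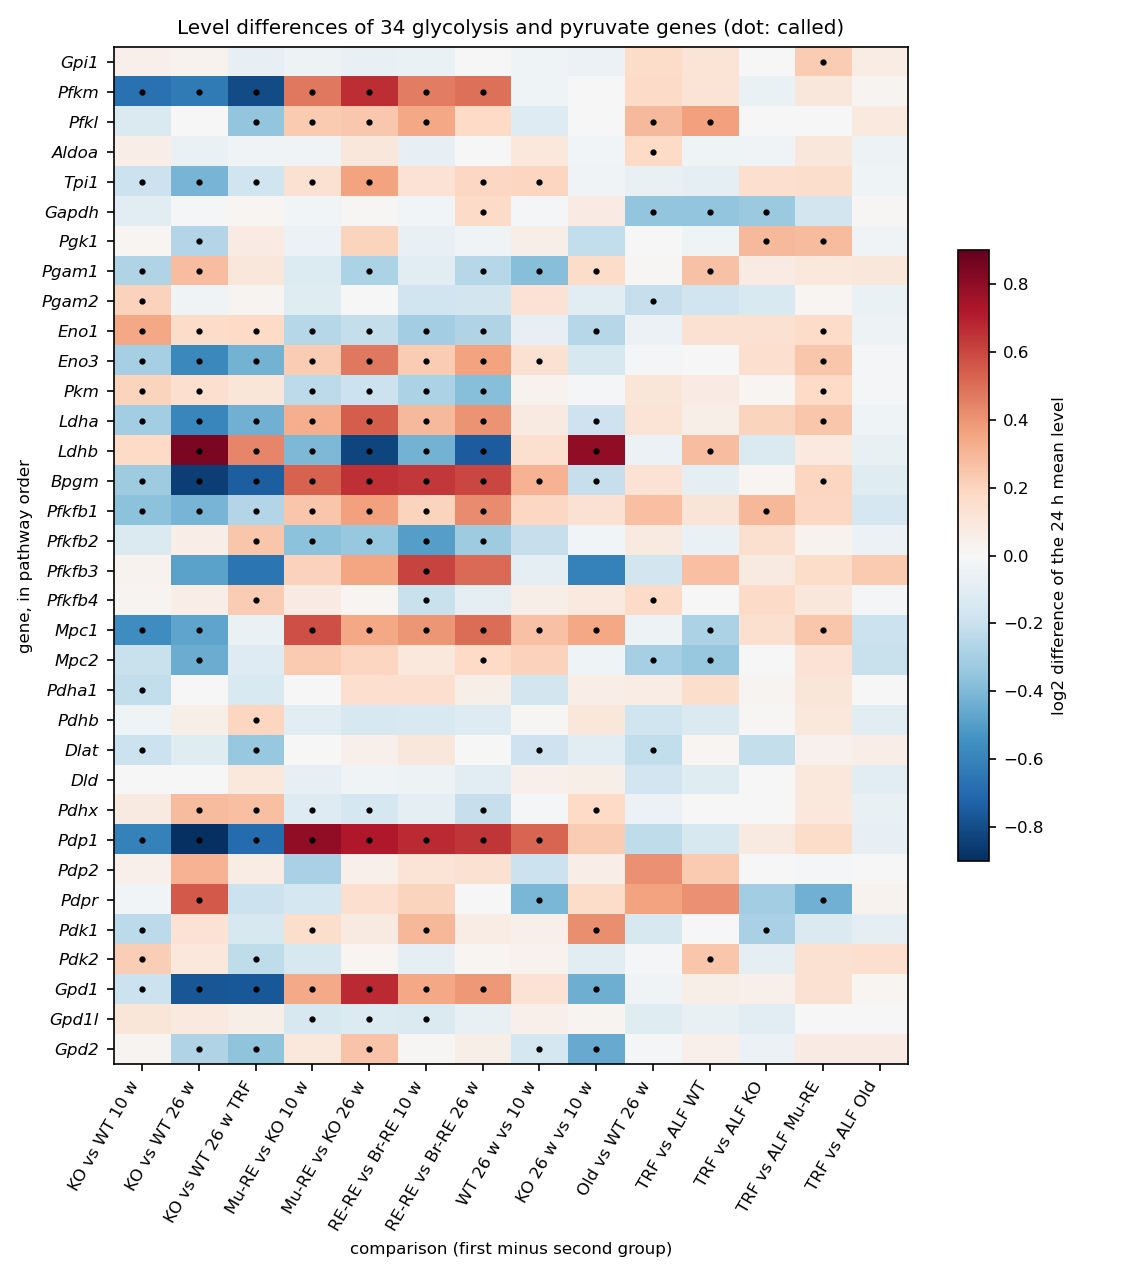
Difference in 24 h mean level (log2, first group minus second, colour) of the 34 tested genes in 14 comparisons, with a dot where limma called the gene at an adjusted p of 0.05. Pfkm, Bpgm, Pdp1, Mpc1, Ldha and Eno3 are lower in KO than WT at 10 and 26 weeks and higher in Mu-RE than KO and in RE-RE than Br-RE muscle.

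Among the tested genes of the early steps of glycolysis, Pfkm had the largest differences. Of hexokinase, the first step, Hk1 was not tested and Hk2 is not a member. Pfkm (chromosome 15, 98092589 to 98132451, GRCm38) measured 9.30 to 10.06 (median 9.75) log2 FPKM in the 23 KO libraries and 10.13 to 10.72 (median 10.41) in the 23 WT libraries at 10 weeks, so that the groups did not overlap. It fell by 0.67 (SE 0.05, adjusted p = 6.58e-14) on the log2 scale, a level 0.628 times that of WT. At 26 weeks the KO libraries lay at 8.94 to 10.06 (median 9.80) against 9.77 to 10.61 (median 10.46) in WT, a difference of -0.64 (SE 0.07, adjusted p = 3.28e-10), with some overlap, and under TRF the difference was -0.81 (SE 0.08, adjusted p = 9.51e-12). Tpi1 fell by 0.19, 0.42 and 0.18 at 10 weeks, 26 weeks and 26 weeks under TRF. Pfkl, the liver-type subunit, was at -0.13 and -0.01 on ALF, not called, and fell by 0.36 under TRF. Gpi1 and Aldoa were called in none of the 3 comparisons, with differences between -0.08 and 0.06. The ratio of Pfkm to Pfkl had a median of 768 in WT and 535 in KO muscle at 10 weeks.

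In the later steps of glycolysis, paired isozymes moved apart. Eno3 fell by 0.30 at 10 weeks, by 0.58 at 26 weeks and by 0.43 under TRF (log2 differences), while Eno1 rose by 0.35, 0.17 and 0.18. Eno1 measured 3.84 to 4.90 (median 4.15) log2 FPKM in KO and 3.3 to 4.03 (median 3.83) in WT libraries at 10 weeks, with a difference of 0.35 (SE 0.05, adjusted p = 5.61e-07) and overlapping ranges. The median ratio of Eno3 to Eno1 was 217 in WT and 138 in KO muscle at 10 weeks, 247 and 148 at 26 weeks, and 228 and 151 under TRF. Pkm rose by 0.20 and 0.15 on ALF and was at 0.11 under TRF, not called. Beside Eno1 and Pkm, 3 of 4 endothelial markers were higher in KO at 10 weeks and 4 of 4 at 26 weeks, with 0 higher and 1 lower under TRF. The summed level of these 4 markers was 4.90 to 6.59 (median 5.83) (log2 of the sum of FPKM) in KO and 3.88 to 5.90 (median 5.11) in WT at 26 weeks. Other cell types lay the other way at that age. The median sum was 3.64 in KO and 4.44 in WT for markers of macrophages and lymphoid cells, and 5.79 and 6.68 for those of fibroblasts. The part of these cell types in the result was not tested.

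The mutases and kinases of this stretch changed less and less evenly. Pgam2 rose by 0.21 in KO muscle at 10 weeks and was at -0.03 and 0.03 at 26 weeks on ALF and TRF, not called. Pgam1, the brain-type mutase, fell by 0.27 at 10 weeks but rose by 0.28 at 26 weeks, and the change of the KO difference with age was 0.55 (SE 0.11, adjusted p = 0.000144). Its WT libraries spanned 2.09 to 3.61 (median 2.52) log2 FPKM at 10 weeks and 1.62 to 2.92 (median 2.21) at 26 weeks, its KO libraries 1.85 to 2.57 (median 2.39) and 1.84 to 2.95 (median 2.56), so that the ranges overlapped at each age. Pgk1 was at 0.02 at 10 weeks, not called, fell by 0.26 at 26 weeks and was at 0.07 under TRF, not called. Gapdh, often used as a reference gene, lay at -0.09, -0.01 and 0.02 and was called in none of the 3 comparisons.

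Bpgm separated KO from WT without overlap at 26 weeks. Bpgm encodes the mutase that makes bisphosphoglycerate, which in red blood cells loosens the hold of haemoglobin on oxygen. At 26 weeks the 24 KO libraries measured 3.04 to 4.08 (median 3.77) log2 FPKM and the 22 WT libraries 4.30 to 5.0 (median 4.57), with no overlap. The difference was -0.85 (SE 0.07, adjusted p = 1.78e-14), and -0.32 (SE 0.06, adjusted p = 8.89e-06) at 10 weeks, where the ranges were 3.63 to 4.26 (median 3.96) and 3.92 to 4.65 (median 4.29). Under TRF it was -0.74 (SE 0.07, adjusted p = 3.57e-13). From 10 to 26 weeks the KO difference changed by -0.53 (SE 0.09, adjusted p = 3.17e-06), and its change with feeding was not called (0.10, adjusted p = 0.414). Of 5 red blood cell markers, 0 were called in the KO comparisons at 10 or 26 weeks. Their summed level (log2 of summed FPKM) at 26 weeks was 5.87 to 9.12 (median 7.19) in KO and 6.49 to 8.89 (median 7.58) in WT libraries. Under TRF it was 6.10 to 10.09 (median 7.82) in KO and 6.79 to 9.39 (median 7.68) in WT libraries. The part of red blood cells in the result was not tested.

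The lactate dehydrogenase pair shifted toward Ldhb, most clearly at 26 weeks. Ldha fell by 0.31 (SE 0.05, adjusted p = 1.38e-06) at 10 weeks. At 26 weeks it measured 8.5 to 9.97 (median 9.19) log2 FPKM in KO and 9.58 to 10.03 (median 9.82) in WT libraries, a difference of -0.59 (SE 0.07, adjusted p = 2.42e-09), and the TRF difference was -0.43 (SE 0.07, adjusted p = 1.4e-06). Ldhb was at 0.18 at 10 weeks, not called (adjusted p = 0.175). At 26 weeks it measured 7.15 to 8.21 (median 7.51) in KO and 6.10 to 7.47 (median 6.75) in WT libraries and was higher by 0.85 (SE 0.09, adjusted p = 1.13e-10), with all 24 KO libraries above the WT median. Under TRF the rise was 0.44 (SE 0.10, adjusted p = 0.000222). From 10 to 26 weeks the KO difference of Ldhb changed by 0.66 (SE 0.14, adjusted p = 0.000303) and that of Ldha changed by -0.27 (SE 0.08, adjusted p = 0.0148).

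In each library the balance of the pair can be read as a ratio. Ldha exceeded Ldhb 8.52-fold in the median WT and 6.22-fold in the median KO library at 10 weeks, and 8.42-fold and 3.21-fold at 26 weeks. At 26 weeks the log2 ratio ran from 1.19 to 2.11 in KO and from 2.33 to 3.59 in WT libraries, so the groups did not overlap. Under TRF the medians were 7.59 in WT and 3.61 in KO. Ldhb is typical of slow and oxidative fibres: of the 3 slow fibre markers tested, 0 were called between KO and WT at 10 weeks, and Myl2 and Atp2a2 were higher in KO at 26 weeks. The summed level of the slow fibre list at 26 weeks was 3.74 to 5.58 (median 4.51) (log2 of summed FPKM) in KO, 3.09 to 4.61 (median 3.56) in WT and 3.34 to 5.60 (median 4.50) in Mu-RE libraries. The median ratio of Ldha to Ldhb in Mu-RE muscle at 26 weeks was 8.39. The part of slow fibres in these results was not tested.

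**Figure D2:**
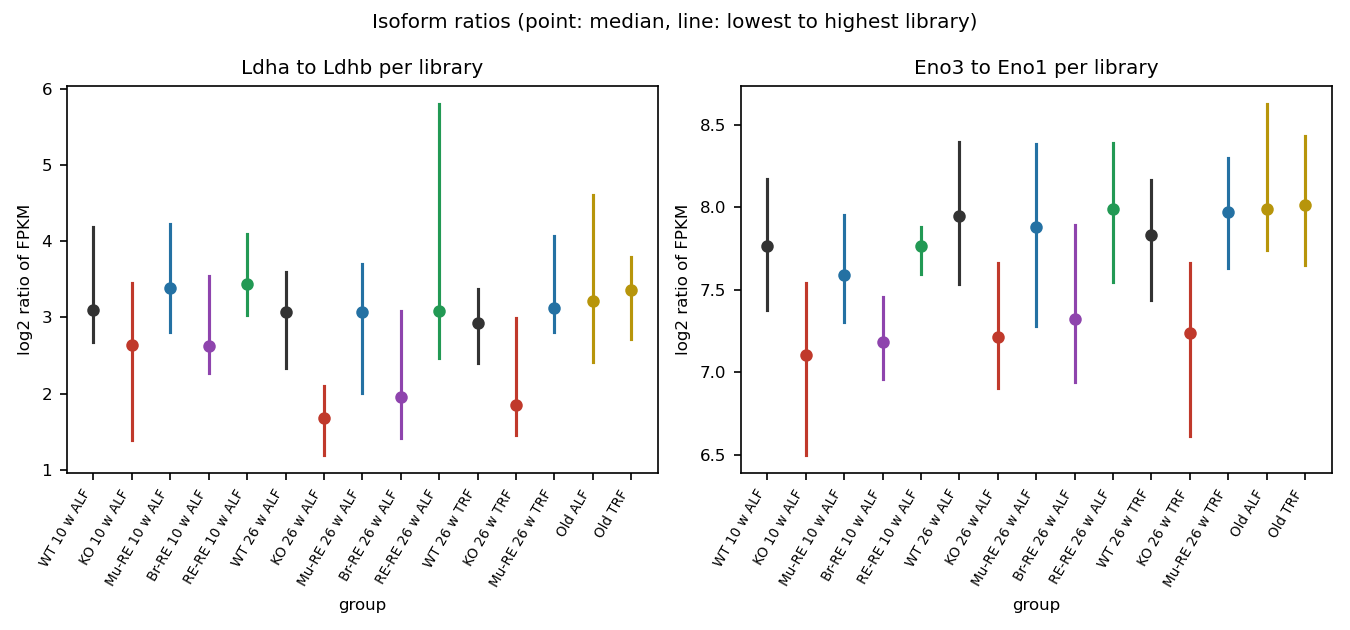
Log2 ratio of FPKM of Ldha to Ldhb and of Eno3 to Eno1 in the 15 groups (point, median; line, lowest to highest library). In both panels each KO median lies below the WT and Mu-RE medians of its age and feeding and each Br-RE median below that of RE-RE; at 26 weeks on ALF the Ldha to Ldhb ratios of KO and WT libraries do not overlap, while those of Eno3 to Eno1 do.

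The glycerol phosphate shuttle fell mainly at 26 weeks. Gpd1 was lower in KO by 0.19 at 10 weeks, and at 26 weeks measured 5.14 to 7.19 (median 6.75) log2 FPKM in KO and 7.14 to 7.85 (median 7.40) in WT libraries, a difference of -0.77 (SE 0.10, adjusted p = 1.88e-08). The ranges overlapped only slightly, and under TRF the difference was again -0.77 (SE 0.10, adjusted p = 9.63e-09). Gpd2, its mitochondrial partner, was at 0.03 at 10 weeks, not called, and fell by 0.27 at 26 weeks and by 0.36 under TRF. The change of the KO difference with age was -0.57 (SE 0.13, adjusted p = 0.000618) for Gpd1 and -0.30 (SE 0.10, adjusted p = 0.0311) for Gpd2, the latter lost in 3 alternatives. Gpd1l was called in none of the 3 comparisons, with differences of 0.11, 0.09 and 0.05. Gpd1 is also abundant in fat cells, whose 4 listed markers all lay below the limit for testing, and their summed level at 26 weeks was -1.32 to 4.00 (median 1.35) in KO and -1.78 to 3.90 (median 0.01) in WT libraries (log2 of summed FPKM).

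Of the enzymes that make and break the activator of phosphofructokinase, Pfkfb1, the form shared by liver and muscle, was lower in KO, with a difference of -0.37 (SE 0.07, adjusted p = 1.91e-05) at 10 weeks, -0.42 at 26 weeks and -0.26 under TRF. Pfkfb2 and Pfkfb4 were not called on ALF and rose under TRF by 0.25 and 0.23. Pfkfb3, whose daily swing is described further on, was at 0.03, -0.48 and -0.66 in its 24 h mean and was not called (adjusted p = 0.932, 0.151 and 0.0577).

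Of the genes for the pyruvate carrier and for the switch on pyruvate dehydrogenase, Mpc1 fell in KO muscle on ALF at both ages and Pdp1 in all 3 comparisons. Mpc1, a subunit of the pyruvate carrier, measured 4.24 to 5.14 (median 4.67) log2 FPKM in KO and 4.85 to 5.52 (median 5.20) in WT libraries at 10 weeks, and fell by 0.56 (SE 0.06, adjusted p = 1.57e-10). At 26 weeks it fell by 0.47, and its partner Mpc2, at -0.20 and not called at 10 weeks, fell by 0.45. Under TRF Mpc1 and Mpc2 were at -0.06 and -0.12, neither called, and the change of the Mpc1 difference with feeding was 0.42 (SE 0.13, adjusted p = 0.0117), a call lost in 3 of 11 alternative settings, which include leaving out 1 animal of each time point.

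Pdp1, the main phosphatase that turns pyruvate dehydrogenase on in muscle, measured 2.83 to 4.16 (median 3.37) log2 FPKM in KO and 3.24 to 4.53 (median 4.03) in WT libraries at 10 weeks, and was lower, at -0.61 (SE 0.10, adjusted p = 6.83e-06). At 26 weeks the ranges were 2.28 to 4.53 (median 3.66) and 3.60 to 5.23 (median 4.59) and the difference -0.90 (SE 0.13, adjusted p = 1.14e-07), the largest in absolute size of any member in that comparison. It was -0.69 (SE 0.09, adjusted p = 9.45e-09) under TRF. Pdp2 was not called, at 0.04, 0.31 and 0.07. Pdpr, the regulatory subunit, was at -0.03 at 10 weeks, rose by 0.55 at 26 weeks and was at -0.20 under TRF, not called at 10 weeks or under TRF. The Pdpr change with feeding, -0.73 (SE 0.28, adjusted p = 0.0434), was lost in 6 alternatives, and 5 of the 22 WT libraries at 26 weeks lay more than 1 log2 unit below their group's median for this gene.

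Of the kinases among the members, Pdk2 rose by 0.22 at 10 weeks, was at 0.09 at 26 weeks, not called, and fell by 0.23 under TRF. Pdk1 fell by 0.24 at 10 weeks and was at 0.13 and -0.15 later, not called. The change of the KO difference with age was 0.37 (SE 0.10, adjusted p = 0.00527) for Pdk1, lost in 2 alternatives. Among the subunits, Pdha1 fell by 0.22 and Dlat by 0.20 at 10 weeks, Pdhx rose by 0.28 at 26 weeks, and under TRF Dlat fell by 0.34 while Pdhx rose by 0.27 and Pdhb by 0.19. Dld, which the complex shares with other dehydrogenases, was called in none of the 3 comparisons, at -0.01, 0.00 and 0.10.

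The difference between KO and WT was itself compared across age and feeding. With age, 3 of the 34 members had a KO difference that moved up and 5 one that moved down, against 10.6% and 8.17% of all tested genes. Those moving up were Ldhb, Pgam1 and Pdk1, and those moving down Gpd1, Bpgm, Gpd2, Eno3 (-0.28) and Ldha. With feeding, 2 moved up (Mpc1 and Pgk1) and 5 down (Pdpr, Ldhb, Pfkl, Pdk2 and Pdk1), against 11% and 16.6%. With library medians made equal 4 moved up and 2 down. Without the 1st, the 2nd or the 3rd animal of each time point the contrast with age gave 2 moving down in place of 5, and the contrast with feeding gave 2, 0 and 2 calls in place of 7. The rise of Ldhb in KO was smaller under TRF than on ALF, with a change of -0.41 (SE 0.13, adjusted p = 0.0171), in 2 comparisons that share no library, and was not called without the 1st or without the 2nd animal of each time point. The calls with feeding for Mpc1, Pgk1, Pdpr, Ldhb, Pfkl and Pdk2 were each lost in 2 to 6 of 11 alternatives. Pfkm was not called in either contrast (0.04 with age and -0.18 with feeding, adjusted p = 0.806 and 0.193).

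With Bmal1 restored in muscle alone, Pfkm, Bpgm, Pdp1, Mpc1, Ldha and Eno3 were higher than in KO muscle, and Ldhb and Eno1 lower, at both ages. In Mu-RE against KO muscle 11 members were higher and 6 lower at 10 weeks, where 17.4% and 17.2% of all tested genes were called, and 11 were higher and 7 lower at 26 weeks, against 17.3% and 16.6%. Without the 2nd or the 4th animal of each time point, 3 and 4 were called lower at 26 weeks in place of 7. These comparisons share the KO libraries with those of KO against WT, so a turn of sign between them is not independent. The median log2 difference of the members was -0.02 at 10 and 0.09 at 26 weeks, and 0.00 and -0.01 over all genes.

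At 10 weeks Pdp1 measured 3.80 to 4.52 (median 4.14) log2 FPKM in Mu-RE against 2.83 to 4.16 (median 3.37) in KO libraries, and was higher by 0.79 (SE 0.07, adjusted p = 1.1e-12). Mpc1 was higher by 0.58 (SE 0.06, adjusted p = 1.13e-11) and Bpgm by 0.53 (SE 0.05, adjusted p = 4.67e-12). These are the phosphatase, the carrier and the mutase that were low in KO muscle. Pfkm measured 9.89 to 10.48 (median 10.20) in Mu-RE against 9.30 to 10.06 (median 9.75) in KO and was higher by 0.47 (SE 0.05, adjusted p = 1.07e-09), while Ldhb was lower, at -0.40 (SE 0.09, adjusted p = 0.000583) and Pfkfb2, a form typical of heart, at -0.37 (SE 0.07, adjusted p = 5.29e-05). Gpd1 (0.34), Ldha (0.33), Pfkfb1 (0.25), Pfkl (0.24), Eno3 (0.23), Pdk1 (0.16) and Tpi1 (0.14) were also higher. Eno1 (-0.25), Pkm (-0.24), Gpd1l (-0.14) and Pdhx (-0.11) were lower.

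At 26 weeks the change in Ldhb led the list. Its Mu-RE libraries measured 6.13 to 7.35 (median 6.79) log2 FPKM and its KO libraries 7.15 to 8.21 (median 7.51), a difference of -0.82 (SE 0.08, adjusted p = 8.49e-12). Pdp1 was higher by 0.72 (SE 0.12, adjusted p = 6e-06), Gpd1 by 0.67 (SE 0.11, adjusted p = 1.97e-06) and Pfkm by 0.66 (SE 0.07, adjusted p = 1.69e-11). These 3 genes were lower in KO than in WT muscle of the same age. Bpgm measured 3.68 to 4.73 (median 4.44) in Mu-RE against 3.04 to 4.08 (median 3.77) in KO and was higher by 0.66 (SE 0.07, adjusted p = 2.7e-11), and Ldha was higher by 0.55 (SE 0.08, adjusted p = 5.75e-07). Eno3 (0.47), Pfkfb1 (0.37), Tpi1 (0.36), Mpc1 (0.35), Gpd2 (0.26) and Pfkl (0.24) were also higher, and Pfkfb2 (-0.34), Pgam1 (-0.29), Eno1 (-0.21), Pkm (-0.20), Pdhx (-0.16) and Gpd1l (-0.12) lower. The plot of single libraries shows Pfkm, Eno3, Ldha, Ldhb, Bpgm and Gpd1 in WT, KO and Mu-RE muscle.

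**Figure D3:**
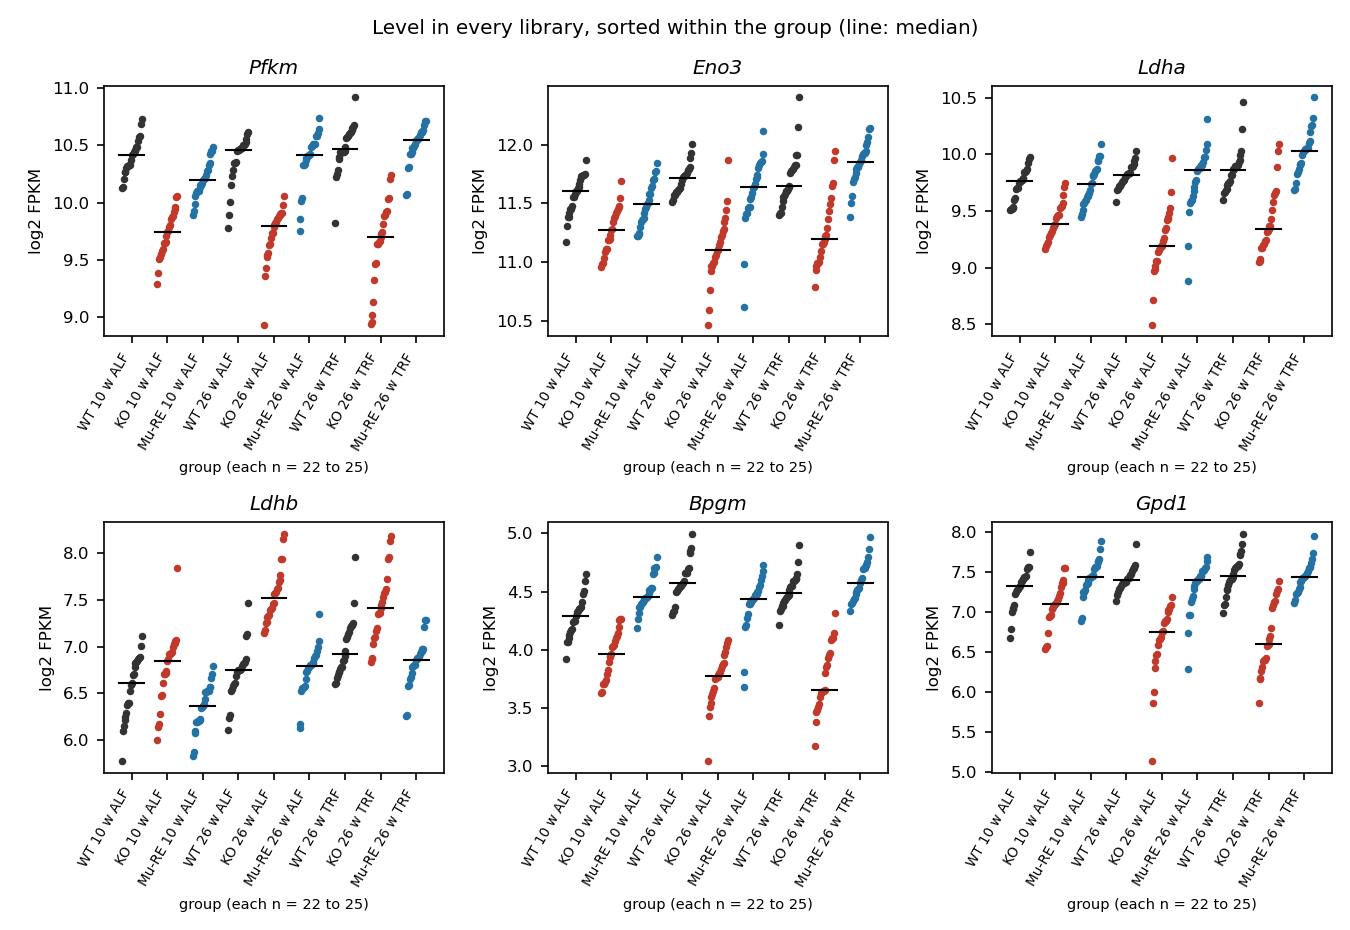
Log2 FPKM of Pfkm, Eno3, Ldha, Ldhb, Bpgm and Gpd1 in each library (point) of WT, KO and Mu-RE muscle at 10 weeks and at 26 weeks on ALF and TRF, with the group median (line). KO medians lie below the WT and Mu-RE medians for Pfkm and Bpgm in all 3 settings and above them for Ldhb at 26 weeks.

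Compared with WT muscle, Mu-RE muscle had lower Pfkfb2 at both ages, and Bpgm was higher at 10 and lower at 26 weeks. At 10 weeks 1 member was higher and 7 lower, against 12.6% and 13.9% of all tested genes, and at 26 weeks 3 were higher and 3 lower, against 16.4% and 14.5%. At 10 weeks Pfkfb2 was lower, at -0.49 (SE 0.08, adjusted p = 1.54e-05) and Pgam1 at -0.39 (SE 0.08, adjusted p = 0.000197), and Bpgm, low in KO, was higher by 0.21 (SE 0.05, adjusted p = 0.000483). Pfkm measured 9.89 to 10.48 (median 10.20) in Mu-RE and 10.13 to 10.72 (median 10.41) in WT libraries and was lower, at -0.20 (SE 0.05, adjusted p = 0.000683). Pdha1 (-0.23 (SE 0.04, adjusted p = 2.02e-05)), Ldhb (-0.21 (SE 0.08, adjusted p = 0.0344), lost in 5 alternatives), Dlat (-0.20 (SE 0.04, adjusted p = 1.72e-05)) and Pdhb (-0.14) were also lower.

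At 26 weeks Pdpr was higher in Mu-RE than in WT muscle by 0.69 (SE 0.16, adjusted p = 0.000936), in the comparison that holds the 5 low WT libraries. Pfkfb2 was lower, at -0.28 (SE 0.07, adjusted p = 0.00316) and Bpgm at -0.20 (SE 0.06, adjusted p = 0.017). Both had lain further from WT in other comparisons, Pfkfb2 in young Mu-RE muscle and Bpgm in KO muscle. Mpc2 (-0.26 (SE 0.10, adjusted p = 0.0448)), Pfkl (0.24 (SE 0.08, adjusted p = 0.0198)) and Pdk1 (0.21 (SE 0.07, adjusted p = 0.0295)) completed the list. The calls for Mpc2, Pdk1, Pfkl and Bpgm were each lost in 3 to 5 alternatives, and leaving out the 2nd animal of each time point gave 2 calls in place of 6. Pfkm (0.03), Ldha (-0.05), Ldhb (0.02), Eno3 (-0.11), Gpd1 (-0.11) and Mpc1 (-0.14) were not called.

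With Bmal1 restored in the brain of both groups, adding it in muscle went with higher Bpgm, Pdp1, Pfkm and Mpc1 and lower Ldhb and Pfkfb2, in libraries that share no control with the comparisons above. In RE-RE against Br-RE muscle, 11 members were higher and 6 lower at 10 weeks, against 14.8% and 17.4% of all tested genes, and 11 were higher and 6 lower at 26 weeks, against 16.5% and 18.9%. At 10 weeks Bpgm measured 4.29 to 4.79 (median 4.57) log2 FPKM in the 24 RE-RE and 3.68 to 4.10 (median 3.94) in the 23 Br-RE libraries, with no overlap and a difference of 0.63 (SE 0.04, adjusted p = 3.89e-18). Pdp1 was higher by 0.67 (SE 0.08, adjusted p = 4.69e-09) and Pfkm by 0.46 (SE 0.09, adjusted p = 3.34e-05). Ldhb was lower, at -0.43 (SE 0.08, adjusted p = 3.71e-05) and Pfkfb2 at -0.50 (SE 0.06, adjusted p = 2.28e-09). Pfkfb3 was higher by 0.61 (SE 0.23, adjusted p = 0.0389), a call lost in 6 alternatives.

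At 26 weeks Ldhb had the largest difference of the members, with 4.95 to 7.49 (median 6.75) log2 FPKM in RE-RE and 6.60 to 7.92 (median 7.55) in Br-RE libraries and a difference of -0.75 (SE 0.12, adjusted p = 1.24e-06). Pdp1 was higher by 0.64 (SE 0.10, adjusted p = 1.77e-06), Bpgm by 0.60 (SE 0.07, adjusted p = 9.54e-10) and Mpc1 by 0.50 (SE 0.08, adjusted p = 7.04e-07). Pfkm was higher by 0.49 (SE 0.08, adjusted p = 2.82e-06) and Pfkfb1 by 0.43 (SE 0.08, adjusted p = 2.05e-05). Ldha (0.29 and 0.41), Eno3 (0.23 and 0.36) and Gpd1 (0.35 and 0.39) were higher and Eno1 (-0.31 and -0.27) and Pkm (-0.29 and -0.38) lower at both ages. The median ratio of Ldha to Ldhb was 10.8 in RE-RE and 6.15 in Br-RE muscle at 10 weeks, and 8.44 and 3.86 at 26 weeks. The median ratio of Eno3 to Eno1 was 218 and 145, then 254 and 160.

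With age, Pdp1 and Bpgm rose in WT muscle, Ldhb and Pdk1 in KO muscle, and Mpc1 in both. From 10 to 26 weeks 5 rose and 4 fell in WT muscle, against 20.9% and 16.1% of all tested genes, and 5 rose and 5 fell in KO muscle, against 14.9% and 10.4%. With library medians made equal 3 rose and 6 fell in KO muscle. Leaving out 1 animal of each time point gave as few as 3 in each direction in KO, and in WT 1 that fell without the 1st or the 3rd animals and 2 that fell without 1 doubted WT library (10 weeks, ZT 0), a setting chosen after seeing the data. In WT, Pdp1 rose by 0.53 (SE 0.12, adjusted p = 0.000739) and Pgam1 fell by 0.38 (SE 0.09, adjusted p = 0.00114). Bpgm rose by 0.32 (SE 0.05, adjusted p = 1.54e-05), beside a rise of all 5 red blood cell markers, whose summed level went from 4.28 to 7.80 (median 6.91) to 6.49 to 8.89 (median 7.58) (log2 of summed FPKM); their part in the result was not tested. Mpc1 rose by 0.26 (SE 0.07, adjusted p = 0.00369) and Tpi1 by 0.19 (SE 0.05, adjusted p = 0.00306), and Pdpr was lower, at -0.41 (SE 0.17, adjusted p = 0.0478), a call lost in 7 alternatives. Eno3 rose by 0.14, and Dlat and Gpd2 fell by 0.19 and 0.16.

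In KO muscle the rise of Ldhb with age was the largest change, from 6.00 to 7.84 (median 6.85) log2 FPKM at 10 weeks to 7.15 to 8.21 (median 7.51) at 26 weeks, a difference of 0.80 (SE 0.10, adjusted p = 8.51e-08). In WT muscle Ldhb was at 0.14, not called. Beside this, the summed slow fibre level (log2 of summed FPKM) was 2.75 to 5.12 (median 3.4) at 10 and 3.74 to 5.58 (median 4.51) at 26 weeks in KO, and 3.11 to 4.13 (median 3.73) and 3.09 to 4.61 (median 3.56) in WT libraries, and its part in the result was not tested. Of the 3 slow fibre markers tested, Myl2 rose with age in KO muscle and Atp2a2 fell in WT muscle. Gpd2 fell by 0.45 (SE 0.08, adjusted p = 2.7e-05) and Gpd1 by 0.44 (SE 0.11, adjusted p = 0.00228), the opposite ends of the glycerol phosphate shuttle. Pdk1 rose by 0.42 (SE 0.07, adjusted p = 1.13e-05) and Mpc1 by 0.35 (SE 0.09, adjusted p = 0.00439), and Eno1 fell by 0.25 (SE 0.06, adjusted p = 0.0022). Bpgm (-0.21) and Ldha (-0.19) also fell, and Pdhx (0.18) and Pgam1 (0.16) also rose.

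Old wild-type muscle differed from 26-week WT muscle in 3 members that were higher and 4 lower, against 12.9% and 11.2% of all tested genes. Gapdh was lower, at -0.36 (SE 0.10, adjusted p = 0.0109), with 6.70 to 8.07 (median 7.32) log2 FPKM in old and 6.65 to 8.20 (median 7.69) in 26-week libraries, ranges that overlapped. Mpc2 was lower, at -0.30 (SE 0.10, adjusted p = 0.0283), Dlat at -0.22 (SE 0.07, adjusted p = 0.018) and Pgam2 at -0.21 (SE 0.08, adjusted p = 0.0389). Pfkl was higher by 0.29 (SE 0.08, adjusted p = 0.00601), Aldoa by 0.18 (SE 0.06, adjusted p = 0.0397) and Pfkfb4 by 0.18. Leaving out 1 animal of each time point gave 1 to 8 calls in place of 7, the fewest without the 1st animals. The genes that led the KO comparisons were not called: Pfkm was at 0.18, Bpgm at 0.13, Ldhb at -0.05, Ldha at 0.13, Gpd1 at -0.03 and Pdp1 at -0.23 (adjusted p from 0.0557 for Ldha to 0.799 for Ldhb).

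Time-restricted feeding moved Pfkl, Gapdh and the pyruvate carrier in WT muscle. There 4 members were higher and 3 lower on TRF than ALF, against 20.9% and 20.1% of all tested genes. Pfkl was higher by 0.37 (SE 0.08, adjusted p = 0.000518) and Gapdh lower, at -0.35 (SE 0.09, adjusted p = 0.00222). The carrier subunits Mpc2 and Mpc1 were lower, at -0.34 (SE 0.10, adjusted p = 0.00571) and -0.29 (SE 0.07, adjusted p = 0.00209). Ldhb was higher by 0.28 (SE 0.09, adjusted p = 0.0122), Pgam1 by 0.27 (SE 0.08, adjusted p = 0.0101) and Pdk2 by 0.25. Without the 2nd animal of each time point 4 members were called in place of 7. In KO muscle 2 were higher and 2 lower, against 4.78% and 9.38%: Gapdh was lower, at -0.34 (SE 0.10, adjusted p = 0.0171) and Pdk1 at -0.29 (SE 0.08, adjusted p = 0.0115), and Pfkfb1 was higher by 0.30 (SE 0.09, adjusted p = 0.029) and Pgk1 by 0.29 (SE 0.10, adjusted p = 0.0404). Leaving out the 2nd animal of each time point gave 0 calls in KO muscle.

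In Mu-RE muscle 8 members were higher and 1 lower on TRF, against 9.05% and 7.87% of all tested genes. Pgk1 was higher by 0.29 (SE 0.07, adjusted p = 0.00791), Ldha by 0.25 (SE 0.07, adjusted p = 0.0152) and Eno3 by 0.25 (SE 0.07, adjusted p = 0.0207). Mpc1 was higher by 0.25 (SE 0.06, adjusted p = 0.00389) and Gpi1 by 0.23 (SE 0.07, adjusted p = 0.0209), and Pdpr was lower, at -0.43 (SE 0.14, adjusted p = 0.0339). Bpgm (0.19), Pkm (0.18) and Eno1 (0.17) were higher too. Leaving out 1 animal of each time point gave 0 to 5 calls in place of 9, 0 without the 2nd animals. In old muscle 0 members were called by limma, with 0 higher and 2 lower at an unadjusted p under 0.05, where 0.122% and 0.0203% of all tested genes were called. For the difference in feeding response between old and 26-week mice 0 members were called, with 1 up and 4 down at an unadjusted p under 0.05, against 0.994% and 1.11% of all genes.

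Over the day, Pfkfb3 had the largest fitted amplitude of the members in each WT, RE-RE and old group. It encodes a bifunctional enzyme with high kinase activity that drives up the activator of phosphofructokinase. In WT muscle at 10 weeks its libraries lay at 4.50 to 5.78 log2 FPKM at ZT 4 and 4.11 to 5.65 at ZT 8, and at 2.90 to 3.24 at ZT 12 and 3.01 to 3.58 at ZT 16, so light-phase and night values at these times did not overlap. The means were 3.90 ± 0.23 (SD, n = 3), 5.14 ± 0.62 (SD, n = 4), 5.03, 3.10, 3.26 and 3.18 from ZT 0 to ZT 20. The fitted 24 h amplitude was 1.12 (SE 0.17, adjusted p = 0.000903), a peak to trough of 4.74-fold with its peak at ZT 4.93. At 26 weeks the amplitude in WT was 1.28 (SE 0.18, adjusted p = 0.000933) with the peak at ZT 5.05, and under TRF 1.13 (SE 0.28, adjusted p = 0.0108) at ZT 7.04. In old muscle the rhythm was called as well, at 1.22 (SE 0.26, adjusted p = 0.0407) and ZT 5.91 on ALF and 1.42 (SE 0.19, adjusted p = 0.000127) and ZT 6.48 on TRF. The ALF call was lost in 4 alternatives.

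In KO muscle, and in Mu-RE muscle with Bmal1 in muscle alone, few genes were called rhythmic on ALF. The shares were 0.071% of all tested genes at 10 weeks and 0% at 26 weeks in each genotype. Arntl and Dbp were not called in these groups. The Pfkfb3 rhythm was not called either. The amplitude was 0.36 and 0.46 in KO (adjusted p = 1 and 0.933) and 0.27 and 0.26 in Mu-RE muscle at 10 and 26 weeks (adjusted p = 0.747 and 0.769). RE-RE muscle had amplitudes of 1.15 (SE 0.23, adjusted p = 0.0408) at ZT 4.38, lost in 4 alternatives, and, not called, 1.19 at ZT 5.21 (adjusted p = 0.0722). Br-RE muscle lay between, at 0.64 and 0.80 (adjusted p = 0.0625 and 0.312), and under TRF KO and Mu-RE muscle reached 0.91 and 0.90 (adjusted p = 0.123 and 0.202). The difference in rhythm between KO and WT did not itself pass, with p = 0.0822 (limma, adjusted p = 0.763) at 10 weeks and p = 0.0634 (limma, adjusted p = 0.833) at 26 weeks. So the groups are not shown to differ in this rhythm. The spread within a time point was wide in Mu-RE muscle, with 2.26 to 4.90 log2 FPKM among the 4 libraries at ZT 16 against 3.01 to 3.58 in WT.

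**Figure D4:**
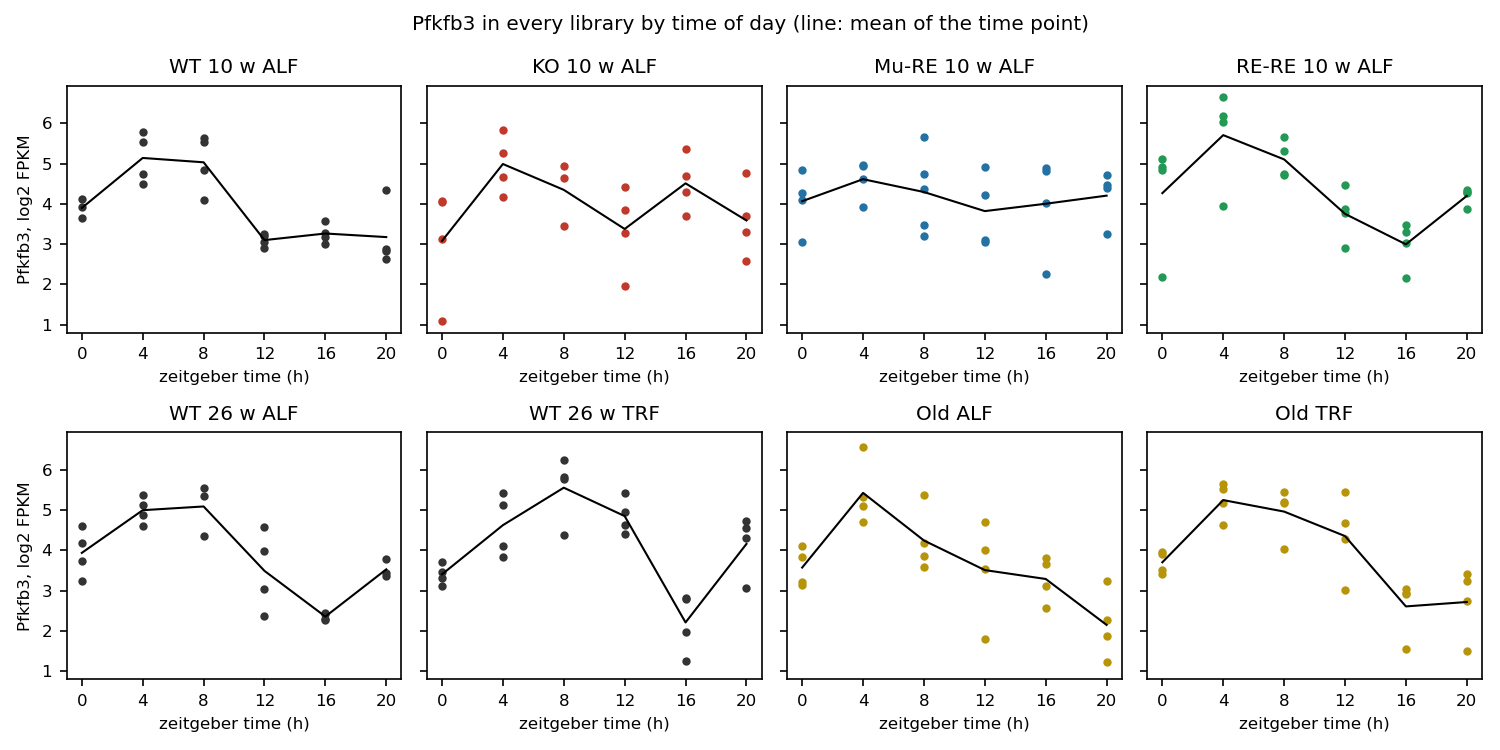
Log2 FPKM of Pfkfb3 against zeitgeber time in 8 groups, each library a point and the line joining the means of the time points. The fitted peaks of the WT, RE-RE and old groups lie between ZT 4.38 and ZT 7.04, while libraries of KO and Mu-RE muscle at 10 weeks scatter at every time point.

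Pdp2, the second pyruvate dehydrogenase phosphatase, was the other member called rhythmic in WT muscle at 10 weeks. Its 4 libraries at ZT 8 lay at 0.83 to 2.24 log2 FPKM and the 4 at ZT 16 at -0.45 to -0.27, and the amplitude was 0.60 (SE 0.15, adjusted p = 0.0394) with a peak at ZT 6.99. This call was lost in 8 alternatives. Under TRF the amplitude in WT was 0.53 (SE 0.07, adjusted p = 6.62e-05) at ZT 10.4, while on ALF at 26 weeks it was 0.44 (adjusted p = 0.28). In KO muscle it was 0.16, 0.06 and 0.11 at 10 weeks, 26 weeks and 26 weeks on TRF, not called. Pdp2 is close to the limit of 1 FPKM, where counting error is larger.

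On ALF, leaving aside Br-RE muscle, 0 to 2 members were called rhythmic in each group. In WT muscle 2 of 34 members were called at 10 weeks, against 5.84% of all tested genes, and 1 at 26 weeks, against 1.04%. KO muscle had 0 at each age, with 0 and 3 members at an unadjusted p under 0.05 (limma), against 0.071% and 0% of all genes called. Mu-RE muscle had 0 at each age, with 3 and 5 at an unadjusted p under 0.05 (limma), against 0.071% and 0%. RE-RE muscle had 1 (Pfkfb3) at 10 weeks, against 0.588%, and 0 at 26 weeks, with 4 at an unadjusted p under 0.05 (limma), against 0.76%. Old muscle on ALF had 1 (Pfkfb3), against 1.41%.

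In Br-RE muscle at 10 weeks 13 members were called rhythmic, where 29% of all tested genes were called. Pdpr had the largest amplitude, 0.65 (SE 0.14, adjusted p = 0.00759), with a peak at ZT 14.2. Pgam1 followed at 0.39 (SE 0.06, adjusted p = 0.00155) and ZT 17.9, Pfkl at 0.32 (SE 0.09, adjusted p = 0.026) and ZT 18.4, and Pdk2 at 0.31 (SE 0.08, adjusted p = 0.0245) and ZT 16.6. Dlat, Pdk1, Gpd1, Pfkfb1, Pfkfb4, Pfkfb2, Pdha1, Gpd1l and Pgk1 were the others, with amplitudes from 0.12 (Gpd1l) to 0.26 (Pfkfb4). The fast fibre markers Myh1 (amplitude 0.63), Myh4 (0.26), Mylpf (0.24) and Tnnt3 (0.11) and the slow fibre marker Atp2a2 (0.32) were called rhythmic in these libraries too. So was Arntl, the targeted gene, in muscle where Bmal1 was not put back. The part of these genes in the result was not tested. With a covariate for the slope of expression on gene length in each library 1 member was called, and leaving out 1 animal of each time point gave 2 to 11 calls in place of 13, the fewest without the 2nd animals. At 26 weeks 1 member was called in Br-RE muscle, against 0.69%: Pfkfb4, with an amplitude of 0.28 (SE 0.06, adjusted p = 0.0485) at ZT 13.9, a call lost in 6 alternatives.

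Under TRF 14 members were called rhythmic in WT muscle, where 37.8% of all tested genes were. Beside Pfkfb3 and Pdp2, the largest amplitudes were those of Mpc1, 0.41 (SE 0.06, adjusted p = 6.62e-05) with a peak at ZT 14.5, and Pgam1, 0.40 (SE 0.07, adjusted p = 0.000381) at ZT 19.4. Pfkfb1, Pdp1, Pfkfb4, Pfkfb2, Pfkl, Dld, Pdk2, Pgk1, Pdhx and Pdhb were the others, from 0.38 (Pfkfb1) to 0.19 (Pdhb). Most of them peaked near the onset of the night: Pdp1 at ZT 11.4, Pfkfb1 at ZT 13.2, Pfkfb4 at ZT 14.4, Pgk1 at ZT 14.5, Pdhx at ZT 14.7, Pdhb at ZT 14.7 and Dld at ZT 14.9. The kinase Pdk2 peaked at ZT 3.45, far from the subunits and phosphatases of its target. Pdk4, which is not a member, was called rhythmic in these libraries as well.

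Mpc1 was the only member whose rhythm was called different between the feeding schedules in WT muscle. Its mean log2 FPKM on TRF was 4.77, 4.91, 5.08, 5.59, 5.51 and 5.35 from ZT 0 to ZT 20. On ALF it was 5.59, 5.47, 5.42, 5.41, 5.68 and 5.26. The TRF means were the lower ones from ZT 0 to ZT 8 and within 0.2 of those on ALF from ZT 12 on. The difference in rhythm had an adjusted p = 0.0412 (limma) and was lost in 6 alternatives, and of all tested genes 3.92% were called in this comparison.

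In KO muscle on TRF 3 members were called rhythmic, against 6.2% of all tested genes: Pfkfb2 with an amplitude of 0.52 (SE 0.13, adjusted p = 0.0448) at ZT 16, Mpc1 with 0.46 (SE 0.09, adjusted p = 0.0169) at ZT 15.9 and Pfkl with 0.42 (SE 0.09, adjusted p = 0.0326) at ZT 23.4. Leaving out any 1 animal of each time point gave 0 calls, and 17 were called when the spread was taken from all 15 groups. Mu-RE muscle on TRF had 2, against 6.97% of all genes, both lost in 2 alternatives: Pgam1 with 0.47 (SE 0.09, adjusted p = 0.0078) at ZT 19.6 and Pfkfb4 with 0.28 (SE 0.06, adjusted p = 0.0164) at ZT 13.8. Old muscle on TRF had 3, against 5.71%: Pfkfb3, Pfkfb4 with 0.37 (SE 0.06, adjusted p = 0.00223) at ZT 15.6 and Pfkfb1 with 0.31 (SE 0.07, adjusted p = 0.0141) at ZT 11.8, the last lost in 4 alternatives. Pfkfb4, which like Pfkfb3 encodes a bifunctional enzyme, thus peaked between ZT 13.4 and ZT 15.6 in all 5 groups in which it was called. Among these groups the Pfkfb3 rhythm was called only in WT and old muscle on TRF, where its fitted peak lay hours earlier. The difference in peak time was not tested.

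**Figure D5:**
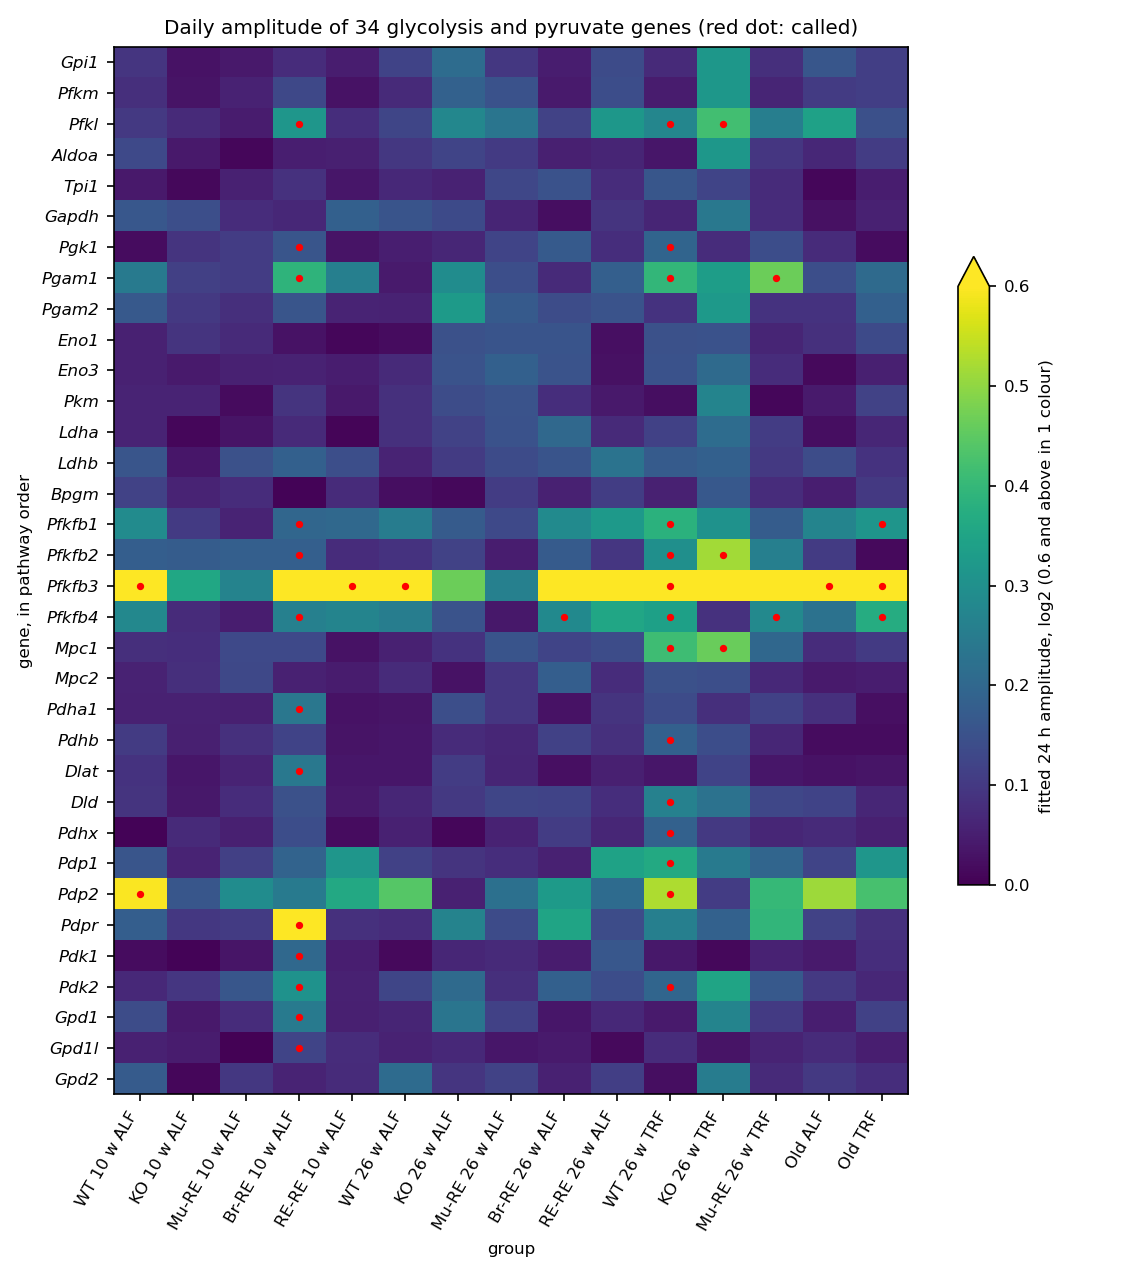
Fitted 24 h amplitude (log2, colour, shown up to 0.6) of the 34 tested genes in the 15 groups, with a red dot where limma called the rhythm at an adjusted p of 0.05. Pfkfb3 is called in WT, RE-RE (10 weeks) and old muscle, and most other dots lie in Br-RE muscle at 10 weeks and WT muscle on TRF.

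Differences in rhythm between groups were otherwise not called for any member. Between KO and WT 0 were called at 10 and at 26 weeks, with 1 and 5 at an unadjusted p under 0.05 (limma), against 0.517% and 0.172% of all tested genes. Between Br-RE and KO 0 were called at both ages, with 8 and 5 at an unadjusted p under 0.05 (limma), against 0.913% and 0%. Pgam1 had the smallest adjusted p among the members at 10 weeks, 0.0898 (limma). Between RE-RE and Br-RE 0 were called, with 3 and 3 at an unadjusted p under 0.05 (limma), against 0.152% and 0.0913%. Between TRF and ALF 0 were called in KO, Mu-RE and old muscle, with 3, 5 and 3 at an unadjusted p under 0.05 (limma), against 0%, 4.86% and 0%. The rhythms called in Br-RE muscle and not in KO muscle are therefore not shown to differ.

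Genes around the pathway were taken from a list of 51, of which 43 had a row and 37 were tested: glucose entry, further isozymes, lactate transport, the pentose phosphate branch, the malate-aspartate shuttle and regulators. In KO against WT muscle 9 were higher and 12 lower at 10 weeks, against 20.3% and 21.6% of all tested genes. At 26 weeks 12 were higher and 13 lower, against 24.4% and 22%, and under TRF 7 and 16, against 25% and 26.9%. The RNA of 2 lactate transporters fell: Slc16a1, the transporter typical of lactate uptake, by 1.24, 1.0 and 0.87, and Slc16a3, typical of lactate export from fast fibres, by 0.87, 0.63 and 0.71 (log2 differences). Fbp2, the muscle fructose bisphosphatase, which runs against phosphofructokinase, fell by 0.82, 1.58 and 0.69, and Tigar, which lowers the activator of phosphofructokinase, by 0.48, 0.72 and 0.64. Ldhd, a mitochondrial lactate dehydrogenase for the other mirror form of lactate, rose by 0.38, 0.40 and 0.33, and Got1 of the malate-aspartate shuttle by 0.17, 0.59 and 0.21. The genes named here are not all of those that moved. Among glucose entry genes, group means of Tbc1d1 ran from 1.99 (KO at 26 weeks on TRF) to 4.84 (WT at 10 weeks) log2 FPKM. Those of Hk2, a hexokinase, ran from 5.03 to 6.42 between the same groups, which differ in genotype, age and feeding.

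In Mu-RE against KO muscle 12 of the 37 were higher and 7 lower at 10 weeks, against 17.4% and 17.2% of all tested genes, and 10 and 9 at 26 weeks, against 17.3% and 16.6%. There Fbp2 was higher by 0.70 and 1.26, Slc16a1 by 0.86 and 0.99 and Tigar by 0.60 and 0.78. In RE-RE against Br-RE muscle 10 were higher and 7 lower at 10 weeks, against 14.8% and 17.4%, and 12 and 8 at 26 weeks, against 16.5% and 18.9%. Mu-RE against WT gave 4 and 9 at 10 weeks, against 12.6% and 13.9%, and 6 and 4 at 26 weeks, against 16.4% and 14.5%. From 10 to 26 weeks 4 rose and 9 fell in WT, against 20.9% and 16.1%, and 11 rose and 4 fell in KO muscle, against 14.9% and 10.4%. In old against 26-week muscle 5 were higher and 1 lower, against 12.9% and 11.2%. On TRF 10 were higher and 4 lower in WT (all genes, 20.9% and 20.1%), 1 and 4 in KO (4.78% and 9.38%), 5 and 3 in Mu-RE (9.05% and 7.87%) and 1 and 0 in old muscle (0.122% and 0.0203%).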

How the data were processed

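RNA from tibialis anterior muscle of 352 mice (360 sequenced, 8 excluded by the submitters) was analysed as log2 FPKM values deposited by the authors. Per the submitters' processing notes, the tools were limma 3.44.1, edgeR 3.30.0, featureCounts 1.6.2, HISAT2 2.1.0, Trim Galore 0.5.0 and FastQC 0.11.8, with build GRCm38. The lowest deposited values equal the log2 of 0.01 FPKM, the offset apparently used on zeros. Treatment of strand and of reads with several matches is not stated in these sources. Means of females and males were equal to within 1e-05 in every gene in 3 sets of libraries (259, 47 and 46), and RE-RE and Br-RE libraries together averaged, at each age, to the mean of the 71 or 140 remaining libraries of that age. Whole reads were recovered for 94.6% of low values in the median library and 91% in the lowest (within 0.1 of a read). Recovered depth was 14.6 to 46.9 M reads (median 22.2).

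Of 14413 genes, the 9862 whose mean over all libraries reached 0 (log2 FPKM) were tested. Models in limma 3.58.1 (R 4.3.3, data.table, version 1.17.8) fitted each group's mean and its 24 h cosine and sine terms, plus sex, and were tested on simulated data. Level differences were two-sided moderated tests, rhythms and rhythm differences F tests, with the spread from the groups compared and Benjamini-Hochberg adjustment over all tested genes, called at 0.05. Plots and summaries used Python 3.11.15, pandas 2.3.3, numpy 2.4.6 and matplotlib 3.10.9. P-values measure the spread between these animals. Full statistics went to up to 6 called members with the largest difference per level comparison and up to 4 by amplitude per rhythm, with isozymes side by side. The members, lists and tests were chosen with earlier results of these data known. Replicate numbers did not pair animals across groups (median r of same-numbered deviations -0.05 to 0.16). Alternatives were no low-value filter, log2(FPKM + 1), equal library medians, the spread of all 15 groups, a gene length slope, no sex term, a replicate block, unordered time points and leaving out 1 animal per time point. A fit without 1 doubted WT library (10 weeks, ZT 0) was added after seeing the data.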

Additional observations from a re-analysis of the deposited data

Results flagged for a closer look

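The tests of a difference between differences called 15 values. Between 10 and 26 weeks, the KO minus WT difference in 24 h mean level (log2) changed for 8 members. It moved up by 0.6601 for Ldhb (adjusted p = 0.000303, limma), by 0.548 for Pgam1 (adjusted p = 0.000144) and by 0.3694 for Pdk1 (adjusted p = 0.00527). It moved down for the others: -0.571 for Gpd1 (adjusted p = 0.000618), -0.5263 for Bpgm (adjusted p = 3.17e-06), -0.2958 for Gpd2 (adjusted p = 0.0311), -0.2808 for Eno3 (adjusted p = 0.0178) and -0.2708 for Ldha (adjusted p = 0.0148). For Pgam1 the KO difference was below 0 at 10 weeks and above 0 at 26 weeks, and each was called.

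Between ALF and TRF at 26 weeks, the KO minus WT difference changed for 7 members. It moved up by 0.4198 for Mpc1 (adjusted p = 0.0117, limma) and 0.3332 for Pgk1 (adjusted p = 0.037). It moved down for the others: -0.7275 for Pdpr (adjusted p = 0.0434), -0.41 for Ldhb (adjusted p = 0.0171), -0.363 for Pfkl (adjusted p = 0.0248), -0.3337 for Pdk2 (adjusted p = 0.0405) and -0.2838 for Pdk1 (adjusted p = 0.0418). Leaving out the 2nd animal of each time point gave 0 calls in this contrast.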

How the results depend on the processing

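Of 123 gene results, 70 were called under every alternative run, and 187 of 1357 recomputed values lost the call. No level difference among these results changed sign. For rhythms and rhythm differences only a size without sign was recomputed, so a moved peak could not show as a reversal. The fit with unordered time points entered only the counts of called members. It is not part of the alternatives for single genes, so loss of a rhythm call under it is not scored there. The replicate block was not run for rhythms within 1 group. The KO against WT calls for Pfkm, Bpgm and Pdp1 at both ages and for Ldha at 26 weeks were among the 70. Of 500 recomputed counts of called members over 44 comparisons, 408 stayed within 1.5 times the main count or were unchanged with no called member. Where the main fit called no member, such a range does not exist. Those unchanged counts therefore cannot measure stability on this scale, and their share of the 408 was not separated. Where a count left the range, the cause was not tested.

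Level counts with the gene length slope as a covariate were 3 in place of 6 for Mu-RE against WT at 26 weeks, 4 in place of 9 for WT with age, 2 in place of 9 for feeding in Mu-RE and 1 in place of 7 for the feeding interaction. With the spread of all 15 groups they were 11 in place of 7 for old against WT and 7 in place of 4 for feeding in KO.

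Rhythm counts in WT at 10 weeks (2) were 1 with no low-value filter, with log2(FPKM + 1), with the length slope and with no sex term, and 4 with the spread of all groups and with unordered time points. WT at 26 weeks (1) gave 2 with the spread of all groups and with the length slope. Br-RE at 10 weeks (13) gave 7 with the spread of all groups and with unordered time points and 1 with the length slope. Br-RE at 26 weeks (1) gave 0 with no low-value filter, no sex term and unordered time points. RE-RE at 10 weeks (1) gave 0 with no low-value filter and unordered time points and 2 with the spread of all groups; RE-RE at 26 weeks (0) gave 3 with the latter. With unordered time points WT on TRF (14) gave 9, Mu-RE on TRF (2) gave 10 and KO on TRF (3) gave 1. KO on TRF gave 17 with the spread of all groups and 6 with the length slope. Old on ALF (1) gave 2 with equal library medians, the spread of all groups and the length slope. For the feeding difference in rhythm, WT (1) gave 0 with no low-value filter, the length slope and unordered time points, KO (0) gave 2 with the spread of all groups and Mu-RE (0) gave 10 with unordered time points.

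Leaving out 1 animal per time point gave ranges of 2 to 4 for Mu-RE against WT at 26 weeks, 4 to 8 for WT with age, 1 to 8 for old against WT, 4 to 9, 0 to 4 and 0 to 5 for feeding in WT, KO and Mu-RE, 4 to 8 for the age interaction, 0 to 6 for the feeding interaction and 0 to 1 for feeding by old age. For rhythms they were 1 to 1 in WT at 10 weeks, 1 to 2 at 26 weeks and 9 to 13 on TRF, 2 to 11 and 0 to 0 in Br-RE, 0 to 1 and 0 to 1 in RE-RE, 0 to 2 in Mu-RE on TRF, 0 to 0 in KO on TRF and 0 to 0 in old on ALF. For rhythm differences they were 0 to 5 for Br-RE against KO at 10 weeks, and 0 to 1 and 0 to 2 for feeding in WT and Mu-RE.

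With the replicate block the count of rhythm differences with feeding in WT was 0 in place of 1. No other count of 29 left the range of 1.5 times, where counts with no called member in either fit were taken as unchanged. In the main fits same-numbered animals were not treated as pairs. Without the doubted library all 6 counts recomputed stayed in that range or were unchanged. Among them, the rhythm difference between KO and WT had no called member in either fit. Values of Pdp2, Pfkl, Pfkfb2, Hk1, Pfkp and Pdk3 near or below 1 FPKM rest on the fewest reads. Centring by the authors prevents comparing Br-RE and RE-RE levels with the other groups.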

Other observations

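Pdpr and Pfkfb3 were the members with the most libraries far from their group. For Pdpr 27 of 352 libraries lay more than 1 log2 unit below the median of their group and 1 lay above by as much, with 5 of 22 in WT at 26 weeks, 4 of 24 in RE-RE at 26 weeks and 0 of 25 in Mu-RE at 10 weeks. For Pfkfb3 67 lay below and 63 above, which includes its daily swing. For Pdp2 4 lay below and 23 above. For Aldoa and Bpgm the counts were 0 below and 0 above.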
